A study of Mus musculus with 16 samples.

Results

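The 9 genes described here encode the signalling subunits of the T cell receptor complex (Cd3d, Cd3e, Cd3g and Cd247), the 2 chains of the CD8 coreceptor (Cd8a and Cd8b1), and the kinases Lck and Zap70 and the adaptor Lat, which act first once the receptor is engaged. They were chosen by gene symbol, or an older synonym of it, among the non-control probes of the array. The symbols matched 16 of 41174 probes, and all 16 were bright enough to be tested. With 1 probe kept for each gene, the 9 genes stood among 18402 tested genes.

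Female C57BL/6N mice aged 7 weeks gave the cells, which flow cytometry sorted as CD8+ Thy1.2+ T cells with much surface CD44 (memory phenotype) or little of it (naive). Each fraction was cultured for 4 h, either with 10 ng/mL PMA plus 500 ng/mL ionomycin (stimulated) or in medium alone (resting). The groups were memory stimulated, memory resting, naive stimulated and naive resting cells, with 4 arrays each from 4 separate rounds of sorting and culture. CD8 and Thy1.2 were sorted for in every group, memory phenotype was set by CD44 alone, and the sources used here do not say whether animals were pooled.

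The receptor's antigen-binding chains have almost no cytoplasmic part, so they signal through the CD3 chains and the zeta chain (Cd247). Lck, held near the receptor by CD8, phosphorylates tyrosines in the activation motifs of these chains, Zap70 docks there and phosphorylates Lat, and Lat gathers the enzymes that raise calcium and activate protein kinase C and Ras. PMA activates protein kinase C directly and ionomycin lets calcium into the cell, so this stimulus starts below all 9 proteins, and the measurements concern their mRNAs.

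The probes are shown because 2 of them lie on the part of the transcript that encodes the activation motif, the stretch that Lck and Zap70 act on. Sequences are written 5′ to 3′ in the sense of the transcript, and capitals mark the codons of the 2 motif tyrosines where the motif is held whole.
Cd3d probe: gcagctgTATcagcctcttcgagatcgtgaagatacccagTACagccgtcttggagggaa
Cd247 probe 2: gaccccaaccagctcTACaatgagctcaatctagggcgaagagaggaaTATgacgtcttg
Cd3g probe: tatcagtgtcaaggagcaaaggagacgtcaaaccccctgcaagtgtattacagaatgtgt
Cd8a probe 3: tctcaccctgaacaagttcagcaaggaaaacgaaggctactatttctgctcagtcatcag
Zap70 probe: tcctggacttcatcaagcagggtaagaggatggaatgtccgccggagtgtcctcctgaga
Lat probe: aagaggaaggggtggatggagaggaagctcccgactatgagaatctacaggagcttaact

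A search for the motif codons (a tyrosine codon, any 2 codons and a leucine or isoleucine codon, then the same again after 6 to 8 codons) found a match on the probe's strand in 74 of 41174 probes, 0.18%, and on either strand in 0.357%. Such a match says only that these letters are in the probe. The files place the Cd3d probe at chr9:44920433-44920664 on the plus strand of mouse build mm7, where its 60 bases are spread over 232 genomic bases. The second Cd247 probe lies at chr1:165827148-165828166, plus strand, spread over 1019 bases. The Cd3g probe lies at chr9:44907978-44908562, minus strand, spread over 585 bases. The Cd8a probe shown lies at chr6:71391822-71391881 and the Zap70 probe at chr1:37022746-37022805, both on the plus strand, and the Lat probe at chr7:122460763-122460822 on the minus strand. Exon, intron and UTR annotation of that build was not used here.

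A level is the log2 signal of a gene's probe after subtraction of the array's own 75th percentile, so a level of 0 is that percentile and each unit is a doubling. In intensity units the percentile was 484.6 to 669.8, and the share of probes well above background was 59.1% to 66.4%. All 16 member probes were well above background on all 16 arrays, and none was saturated. The 5 T cell markers checked (Thy1, Cd2, Cd5, Cd28, Trat1) were above background on every array too. Pearson's r across genes between arrays of a group was 0.9784 to 0.9953, genes not being independent replicates. Each group was hybridised and scanned on a slide of its own, so slide and group cannot be told apart in any comparison here. Cd44, the gene of the sort marker, was higher in memory than in naive cells at rest by 4.05 ± 0.20 (log2, SE).

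**Figure D1:**
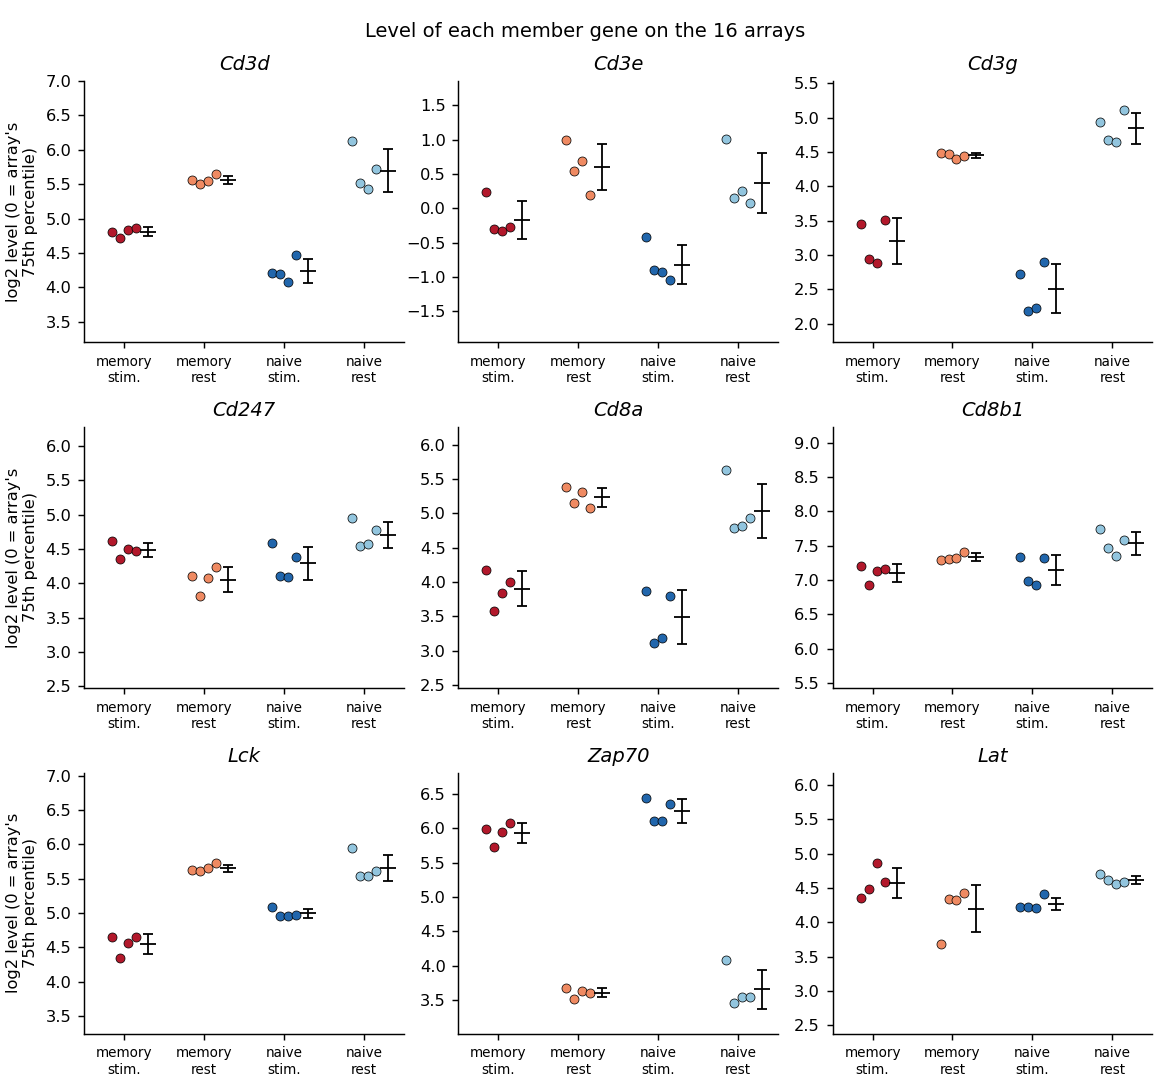
Level of each of the 9 genes on the 16 arrays (y axis, log2 signal minus the 75th percentile of the array, every panel spanning the same number of units) by group (x axis); points are arrays and bars are means ± SD of 4 arrays. Zap70 stands 2.33 and 2.60 units higher in stimulated than in resting memory and naive cells, while Cd3d, Cd3e, Cd3g, Cd8a and Lck lie lower in the stimulated group of both.

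Stimulation moved the 9 mRNAs apart. In memory cells Zap70, Cd247 and Lat rose, while Cd3d, Cd3e, Cd3g, Cd8a and Lck fell and Cd8b1 did not pass the test (limma, adjusted p under 0.05). In naive cells 1 gene rose (Zap70) and 7 fell, and only Lat did not pass. Under quantile normalization or in the authors' deposited table only Zap70 rose in memory cells, and Cd247 and Lat had the opposite sign without passing. Against these counts, 31.4% of all tested genes rose and 39.1% fell in memory cells, and 38.3% rose and 31.0% fell in naive cells. In either direction the shares were 70.5% in memory and 69.2% in naive cells. The members' median change was -0.75 in memory and -0.66 in naive cells, beside -0.16 and 0.15 over all genes.

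The scale on which a bright gene is read matters here, since 8 of the 9 genes have a mean level of at least 3. The 2619 genes that bright had a median change of 0.53 in memory and 0.43 in naive cells under the 75th percentile scaling. After quantile normalization the same medians were -0.03 and -0.0021. The median of all genes in the memory response was -0.16 and -0.12 under these 2 scalings, and 0.03 with a normexp background correction. In the naive response it was 0.15 and 0.01. In memory cells quantile normalization moved Cd3d to -1.42, Cd8a to -1.94, Lck to -1.74 and Zap70 to 1.71, each by over 1.5 times in fold from the values given below. In naive cells the authors' deposited table moved Cd3d to -2.08, Cd8a to -2.20 and Lck to -1.35 by as much. Changes of the bright members are given below with their value after quantile normalization where sign or call depends on it.

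**Figure D2:**
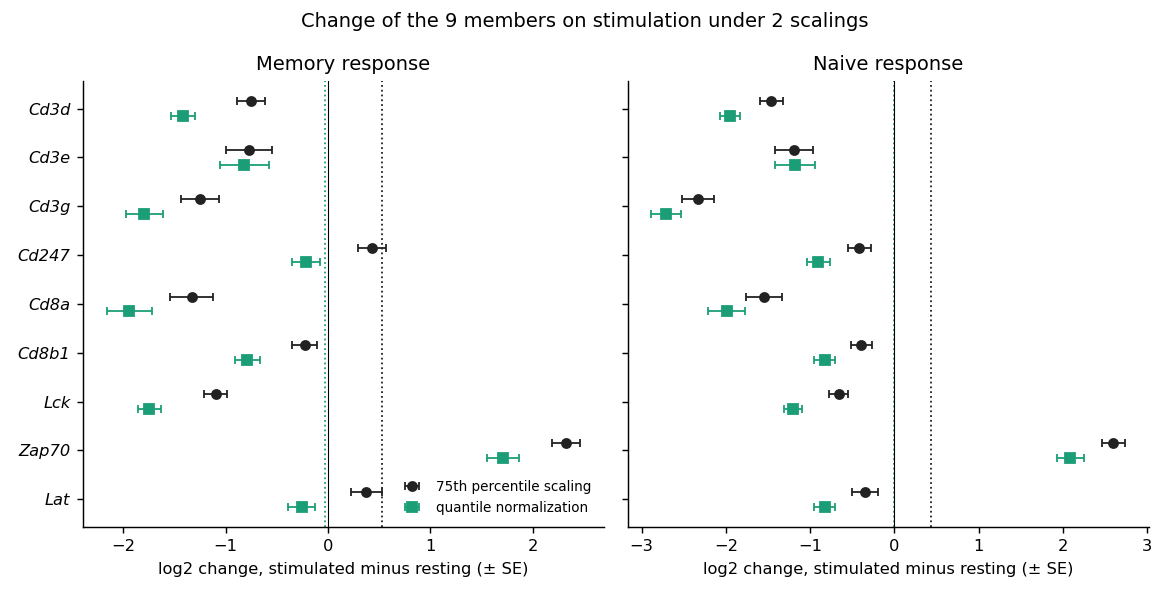
Log2 change (x axis, stimulated minus resting, ± SE, 4 arrays a group) of the 9 genes (y axis) in memory cells on the left and naive cells on the right, with black circles for the 75th percentile scaling and green squares for quantile normalization; dotted lines mark the median of the 2619 bright genes under each. Cd247 and Lat lie at 0.43 and 0.38 in memory cells under the first and at -0.21 and -0.26 under the second, while Zap70 is above 0 and the CD3 chains, Cd8a and Lck are below 0 under both.

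Zap70, the kinase that docks on phosphorylated receptor chains, was the member that rose in both cell types under every setting tried. It was at 5.99, 5.73, 5.94 and 6.07 in memory stimulated cells, against 3.68, 3.52, 3.63 and 3.60 in memory resting cells. In naive cells it was at 6.45, 6.11, 6.11 and 6.36 after stimulation, against 4.08, 3.45, 3.55 and 3.55 at rest. No stimulated array overlapped a resting one. The change was 2.33 ± 0.14 in memory cells (5.02-fold, limma's adjusted p = 8.10e-10) and 2.60 ± 0.14 in naive cells (6.06-fold, adjusted p = 2.41e-10). At rest, memory minus naive was -0.05 ± 0.14, which did not pass (adjusted p = 0.832).

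Among the outermost RefSeq promoter windows of the members, the Zap70 window alone holds TGACGTCA, the letters bound by cAMP response element factors. Windows of 300 bases, from 250 before to 50 after the gene's start, were listed for 8 of the 9 genes on GRCm38.p6, Cd8b1 being the gene without one. Motifs were chosen with these sequences in view and searched on both strands in the outermost window of each gene. Zap70 has 3 listed windows and Lck 2, and their inner windows were not searched. TGACGTCA is in 1.79% of all 32851 windows. It is shown in capitals in the Zap70 window, chr1:36761548-36761847, plus strand, where it starts 18 bases before the gene's start.
Zap70 promoter: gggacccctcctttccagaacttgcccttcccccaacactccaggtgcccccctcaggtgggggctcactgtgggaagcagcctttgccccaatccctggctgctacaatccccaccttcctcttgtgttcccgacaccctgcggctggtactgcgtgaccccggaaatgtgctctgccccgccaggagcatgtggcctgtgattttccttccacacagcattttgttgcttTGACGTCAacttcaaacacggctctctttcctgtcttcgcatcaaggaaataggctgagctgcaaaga

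None of the 8 windows searched held TGANTCA, the AP-1 letters, which are in 7.81% of all windows. GGAAA, the core bound by NFAT, is in 61.3% of all windows and in those of Cd3d, Cd3e, Cd3g, Cd8a, Zap70 and Lat. The Zap70 window holds 5 matches and the others of these hold 1 or 2, while the windows of Cd247 and Lck hold none. How many of all windows hold 5 was not counted. GGAAG, an ETS core, is in 71.4% of all windows and in those of every listed member except Cd3g. A match is a string of letters, and no binding was measured here.

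The CD3 chains fell in both cell types. Cd3g encodes the gamma chain of CD3, which pairs with the epsilon chain. It was at 3.46, 2.94, 2.89 and 3.52 in memory stimulated cells, against 4.49, 4.48, 4.40 and 4.45 in memory resting cells. Naive cells had 2.73, 2.19, 2.22 and 2.90 after stimulation, against 4.93, 4.68, 4.65 and 5.11 at rest. The groups of each comparison did not overlap, and the changes were -1.25 ± 0.19 in memory cells (0.42-fold, adjusted p = 2.11e-05) and -2.33 ± 0.19 in naive cells (0.199-fold, adjusted p = 2.16e-08). These are bulk samples, so fewer cells carrying a transcript and less of it per cell cannot be told apart.

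Cd3d encodes the delta chain, the other partner of epsilon. It was at 4.81, 4.72, 4.84 and 4.87 in memory stimulated cells, against 5.56, 5.50, 5.54 and 5.64 in memory resting cells. The naive arrays were at 4.21, 4.20, 4.07 and 4.47 after stimulation, against 6.13, 5.52, 5.42 and 5.72 at rest. All stimulated arrays lay below all resting ones in both cell types. The changes were -0.75 ± 0.14 in memory cells (0.593-fold, adjusted p = 1.65e-04) and -1.46 ± 0.14 in naive cells (0.363-fold, adjusted p = 1.49e-07).

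Cd3e, the epsilon chain shared by both CD3 pairs, was read by a probe near the array's 75th percentile. It was at 0.24, -0.30, -0.33 and -0.28 in memory stimulated cells, against 0.998, 0.54, 0.70 and 0.20 in memory resting cells. Naive cells had -0.41, -0.90, -0.92 and -1.04 after stimulation, against 1.01, 0.15, 0.25 and 0.07 at rest. Replicate 1 was the highest array of Cd3e in all 4 groups, and memory stimulated and memory resting arrays overlapped. The changes were -0.78 ± 0.23 in memory cells (adjusted p = 0.00631) and -1.19 ± 0.23 in naive cells (adjusted p = 2.31e-04). A second probe fell by 1.34 and 1.53 on the log2 scale.

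The same files place the probes of Cd3g, Cd3d and the brighter one of Cd3e close together on chromosome 9, at 44907978, 44920433 and 44933516 at their starts. Cd3g and Cd3e lie on the minus and Cd3d on the plus strand. All 3 neighbours were lower in stimulated cells of both types.

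Cd247, the zeta chain that holds the most activation motifs of the complex, rose in memory cells, where the CD3 chains fell, under the 75th percentile scaling but not under quantile normalization. Its brightest probe was at 4.61, 4.36, 4.50 and 4.47 in memory stimulated cells, against 4.11, 3.81, 4.07 and 4.24 in memory resting cells. In naive cells it was at 4.58, 4.10, 4.09 and 4.38 after stimulation, against 4.95, 4.54, 4.57 and 4.78 at rest. Stimulated and resting arrays did not overlap in memory cells and did in naive cells. The change was 0.43 ± 0.14 in memory cells (1.35-fold, adjusted p = 0.0116), and -0.21 (adjusted p = 0.187) after quantile normalization. In naive cells it was -0.42 ± 0.14 (0.749-fold, adjusted p = 0.0142), and -0.35 (adjusted p = 0.0501) without naive stimulated replicate 3. It was -0.90 (adjusted p = 3.04e-05) in naive cells after quantile normalization and -1.08 (adjusted p = 1.32e-06) in the authors' deposited table.

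Over all 16 member probes, 10 fell in memory cells and 13 in naive cells, where 37.2% and 30.4% of all tested probes fell. The 4 probes of Cd247 did not move alike. Probe 2, whose sequence with the activation motif is given above, followed the first, with 0.50 ± 0.16 in memory and -0.39 ± 0.16 in naive cells. Probe 3, named in the files by an older synonym of the gene, fell in both, by 1.09 ± 0.22 in memory cells and by 1.88 ± 0.22 in naive cells. Probe 4 passed in neither, at -0.27 ± 0.21 and -0.42 ± 0.21. The mean of the 4 probes changed by -0.11 in memory cells (adjusted p = 0.588), so the rise rests on the 2 brighter probes. Which transcript forms each probe reads was not tested.

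**Figure D3:**
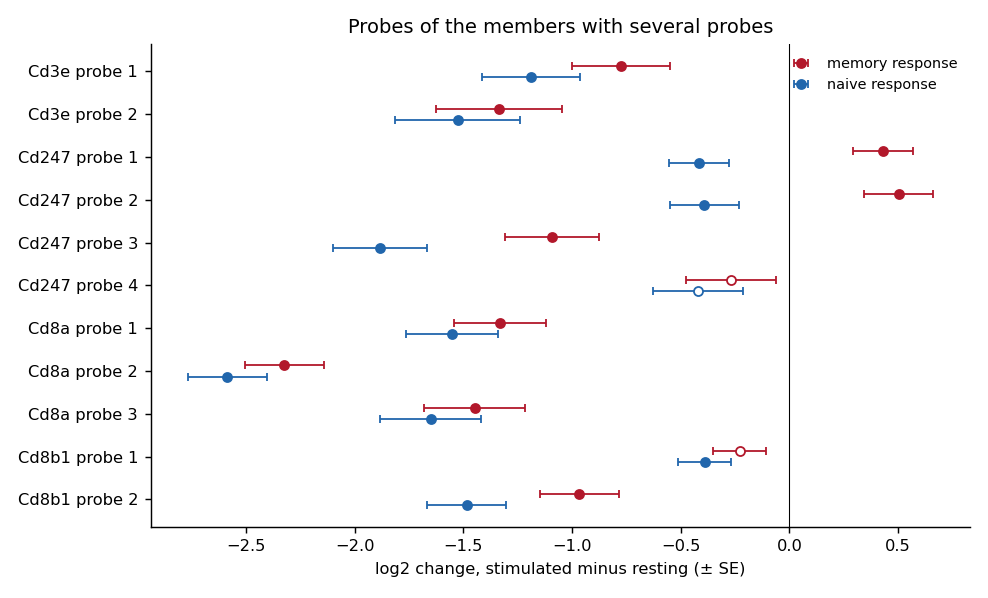
Log2 change (x axis, stimulated minus resting, ± SE, 4 arrays a group) of every probe of the 4 members with more than 1 probe (y axis, probes numbered from the brightest), red for memory and blue for naive cells; filled points passed an adjusted p of 0.05 over all probes. The probes of Cd3e, Cd8a and Cd8b1 lie below 0 in both, and the Cd247 probes run from -1.09 to 0.50 in memory cells.

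Of the CD8 coreceptor, the alpha chain fell in both cell types and the beta chain passed in naive cells. Cd8a, whose protein binds Lck, was at 4.18, 3.58, 3.84 and 4.00 in memory stimulated cells, against 5.39, 5.15, 5.31 and 5.08 in memory resting cells. Naive cells had 3.87, 3.12, 3.18 and 3.79 after stimulation, against 5.62, 4.79, 4.82 and 4.93 at rest. Stimulated arrays lay below resting ones throughout, and the changes were -1.33 ± 0.21 in memory cells (0.397-fold, adjusted p = 4.40e-05) and -1.55 ± 0.21 in naive cells (0.341-fold, adjusted p = 9.31e-06). Its other 2 probes fell by 2.32 and 1.45 in memory cells and by 2.59 and 1.65 in naive cells.

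Cd8b1, the beta chain, was at 7.20, 6.92, 7.12 and 7.16 in memory stimulated cells, against 7.29, 7.30, 7.32 and 7.41 in memory resting cells. The naive arrays were at 7.33, 6.98, 6.92 and 7.33 after stimulation, against 7.74, 7.46, 7.35 and 7.58 at rest. Groups did not overlap, but the differences were small. The change of -0.23 ± 0.12 in memory cells did not pass (adjusted p = 0.105), although it was -0.79 (adjusted p = 3.53e-05) after quantile normalization. The change of -0.39 ± 0.12 in naive cells passed (0.763-fold, adjusted p = 0.00986). A second, dimmer probe fell by 0.97 in memory and 1.49 in naive cells, but the files place it on chromosome 5, whereas RefSeq's gene table places Cd8b1 on chromosome 6.

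Lck, the Src-family kinase that starts the cascade, fell in both cell types. It was at 4.65, 4.35, 4.57 and 4.65 in memory stimulated cells, against 5.63, 5.61, 5.65 and 5.72 in memory resting cells. Naive cells had 5.09, 4.96, 4.96 and 4.97 after stimulation, against 5.94, 5.53, 5.54 and 5.61 at rest. The stimulated groups stood apart from the resting ones. The changes were -1.10 ± 0.11 in memory cells (0.467-fold, adjusted p = 2.61e-07) and -0.66 ± 0.11 in naive cells (0.632-fold, adjusted p = 6.22e-05).

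Lat, the adaptor that Zap70 phosphorylates, passed the test in memory cells under the 75th percentile scaling, with the opposite sign after quantile normalization. It was at 4.36, 4.48, 4.87 and 4.59 in memory stimulated cells, against 3.69, 4.34, 4.33 and 4.43 in memory resting cells. In naive cells it was at 4.23, 4.22, 4.21 and 4.41 after stimulation, against 4.70, 4.62, 4.56 and 4.58 at rest. The memory groups overlapped and the naive groups did not. The change was 0.38 ± 0.15 in memory cells (1.30-fold, adjusted p = 0.0377), and -0.26 (adjusted p = 0.0902) after quantile normalization.

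Without memory resting replicate 1, the lowest array of that group, the change of Lat in memory cells was 0.21 (adjusted p = 0.138). It was 0.28 (adjusted p = 0.125) without memory stimulated replicate 3 and 0.37 (adjusted p = 0.0667) without memory stimulated replicate 4. In naive cells the change was -0.35 ± 0.15 (adjusted p = 0.0534), and -0.83 (adjusted p = 4.06e-05) after quantile normalization.

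Counted by overlap, 7 members had stimulated and resting groups that did not overlap in memory cells and 8 in naive cells, where 64.7% and 60.6% of all tested genes did so.

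Between memory and naive cells at rest, 1 of these mRNAs passed the test. Cd247 was lower in memory cells by 0.65 ± 0.14 (0.637-fold, adjusted p = 0.00339), its 4 memory resting arrays between 3.81 and 4.24 and its 4 naive resting arrays between 4.54 and 4.95. Its second probe was lower as well, by 0.71 ± 0.16 (adjusted p over all probes = 0.00550, where 6.76% of probes were lower). Probe 3, at -0.59 (adjusted p = 0.0704), and probe 4, at -0.05 (adjusted p = 0.903), did not pass. No other member passed, so 1 of 9 was lower and 0 of 9 higher, where 7.66% of all genes were lower and 13.9% higher. Cd3g at -0.39 ± 0.19 (adjusted p = 0.153) and Lat at -0.42 ± 0.15 (adjusted p = 0.0631) did not pass, though their groups did not overlap.

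In this comparison arrays of the same replicate number deviated together. The replicate number was also the position on the slide on every array. A shared round of sorting and a shared slide position therefore cannot be told apart. With the replicate number as a block, 3 members were lower in memory resting cells, Cd247 (adjusted p = 3.01e-04), Cd3g (adjusted p = 0.0292) and Lat (adjusted p = 0.0424). The block also took the count of all genes that were lower to 2427, from 1409 without it. Groups that did not overlap numbered 3 of 9 members, all lower in memory cells, against 22.6% of all genes.

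After stimulation Cd3d and Cd3g, and the brighter probe of Cd3e, were higher in memory than in naive cells. Cd3d differed by 0.57 ± 0.14 (1.49-fold, adjusted p = 0.00723), with no overlap between arrays, and Cd3g by 0.69 ± 0.19 (1.61-fold, adjusted p = 0.0136), with overlap. Cd3e differed by 0.65 ± 0.23 (1.57-fold, adjusted p = 0.0474), but its second probe by 0.23 ± 0.29 (adjusted p = 0.619), with overlap. Lck was lower in memory stimulated cells by 0.44 ± 0.11 (0.737-fold, adjusted p = 0.00845), again with no overlap. So 3 of 9 members were higher and 1 lower, where 10.1% of all genes were higher and 14.1% lower.

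The call for Cd3e was lost under 15 of 24 other settings, with adjusted p up to 0.211, and the call for Cd3g without naive stimulated replicate 2 (0.58, adjusted p = 0.0511) and with only the 2 groups in the fit (adjusted p = 0.0517). Among these losses for Cd3e were values of 0.52 (adjusted p = 0.145) without memory stimulated replicate 1 and 0.58 (adjusted p = 0.122) without naive stimulated replicate 4. Leaving out any other array of the stimulated groups, apart from naive stimulated replicate 1, ended it too. Zap70 at -0.32 ± 0.14 (adjusted p = 0.104), Cd8a at 0.41 ± 0.21 (adjusted p = 0.176), Cd247, Cd8b1 and Lat did not pass. Groups did not overlap for 4 of 9 members (Cd3d, Cd3e, Lck and Zap70), against 27.7% of all genes.

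The difference between the 2 responses was tested directly, as the memory response minus the naive response. It passed for 4 of 9 members, all higher in memory, where 5.90% of all genes were higher and 14.1% lower. The values were 1.08 ± 0.26 for Cd3g (adjusted p = 0.00900), 0.85 ± 0.20 for Cd247 (adjusted p = 0.00657), 0.71 ± 0.19 for Cd3d (adjusted p = 0.0181) and 0.72 ± 0.22 for Lat (adjusted p = 0.0272). Cd3d and Cd3g fell less in memory than in naive cells. Their resting and stimulated arrays in both cell types are those given above, and this contrast shares all of them with the simple comparisons.

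After quantile normalization the difference between responses kept its sign for all 4 and its call. The call for Lat was lost without naive stimulated replicate 2 (0.71, adjusted p = 0.0521), naive stimulated replicate 3 (0.71, adjusted p = 0.0510) or memory stimulated replicate 3 (0.63, adjusted p = 0.0554). For Cd247 it was lost with the mean of its 4 probes (0.67, adjusted p = 0.0657). Lck, at -0.44 ± 0.15 (adjusted p = 0.0576), did not pass, and passed after quantile normalization (-0.54, adjusted p = 0.0271), in the authors' deposited table and without naive resting replicate 1 (-0.53, adjusted p = 0.00925). Cd3e at 0.41, Cd8a at 0.22, Cd8b1 at 0.16 and Zap70 at -0.27 did not pass either.

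Ratios between 2 members on the same array do not depend on any constant by which an array is scaled. Zap70 minus Lck averaged 1.38 ± 0.03 in memory stimulated cells and -2.05 ± 0.08 in memory resting cells (log2, SD, n = 4 each), a difference of 3.43. In naive cells it averaged 1.26 ± 0.13 after stimulation and -1.998 ± 0.10 at rest, a difference of 3.26. Lat minus Lck differed by 1.48 between memory stimulated and memory resting cells and by 0.31 between naive stimulated and naive resting cells. Cd8b1 minus Cd8a differed by 1.10 in memory and 1.16 in naive cells, and Cd247 minus Cd3e by 1.21 and 0.77. Each gene was read here by its brightest probe alone. Cd247 probe 2 changed as the first did, but probe 3 fell by 1.09 and 1.88, more than the brighter Cd3e probe. The dimmer Cd8b1 probe, placed on chromosome 5, fell by 0.97 and 1.49.

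Each of these 8 ratio differences had no overlap between groups and an exact two-sided permutation p of 0.02857, the smallest that 4 arrays against 4 can give. Over 24 ratio tests, 12 reached that value, and after Benjamini-Hochberg adjustment it became 0.05714, so none passed 0.05. This count rests on how many tests reach the smallest p, as 14 passed after quantile normalization or normexp, 17 in the authors' deposited table and up to 14 with an array left out. A ratio of this kind shows unequal change only.

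The genes most like each member over the 16 arrays were found by Pearson's r, as a description. The arrays fall into 4 groups, so r follows mainly the group means. Zap70 was closest to Btla (0.996), which encodes an inhibitory receptor of lymphocytes, and to Ndfip1 (0.994). Cd3d was closest to Cd52 (0.992), Cd8a to Pstpip1 and Arhgdib (both 0.988), Lck to Slc37a1 (0.986) and Ccr7 (0.985), and Cd3g to Nt5dc1 (0.981). Cd3e was closest to Zfp956 and Unk (both 0.975). The members with the smallest changes had less close matches, Cd8b1 with Selenow (0.928), Lat with Zfp954 (0.902) and Cd247 with Tars2 (0.857).

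Around the 9 genes, 89 further genes of the pathway were tested in 6 lists. In memory cells 30 rose and 41 fell, and in naive cells 29 rose and 35 fell. Of all tested genes, 31.4% rose and 39.1% fell in memory cells, and 38.3% rose and 31.0% fell in naive cells. These shares stand beside the counts of each list below too. The median change of the 89 genes was -0.28 in memory and -0.09 in naive cells, beside -0.16 and 0.15 over all genes. Of 31 adaptors and enzymes listed as downstream in the pathway, 9 rose and 14 fell in memory cells, and 8 rose and 15 fell in naive cells.

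Tespa1, which links the receptor to calcium release, rose by 3.09 ± 0.19 in memory and 2.97 ± 0.19 in naive cells. Orai1, the calcium channel of the plasma membrane, rose by 2.49 ± 0.16 in memory cells, and Sh2d2a, an adaptor that binds Lck, by 2.47 ± 0.22 in naive cells. Grap2, the adaptor that joins Lat to Lcp2, fell by 4.04 ± 0.17 in memory and 3.72 ± 0.17 in naive cells. Lcp2 (SLP-76), its partner, rose by 0.99 in memory and 1.01 in naive cells.

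Of 19 negative regulators, 10 rose and 8 fell in memory cells, and 8 rose and 8 fell in naive cells. Sla, an adaptor that promotes the loss of receptor chains from the cell, rose by 2.88 ± 0.16 in memory and 3.66 ± 0.16 in naive cells. Ubash3b, a phosphatase that acts on Zap70, rose by 2.94 ± 0.19 and 3.58 ± 0.19. Sla2, the relative of Sla, fell by 4.55 ± 0.23 in memory and 3.70 ± 0.23 in naive cells. Dgka, a kinase that removes the diacylglycerol which PMA mimics, fell by 3.98 ± 0.19 and 3.93 ± 0.19.

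Of the 10 receptor chain genes tested, 4 rose and 6 fell in memory cells and 3 rose and 2 fell in naive cells. Of 14 transmembrane modulators and coreceptors, 4 rose and 5 fell in memory cells and 6 rose and 3 fell in naive cells.

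**Figure D4:**
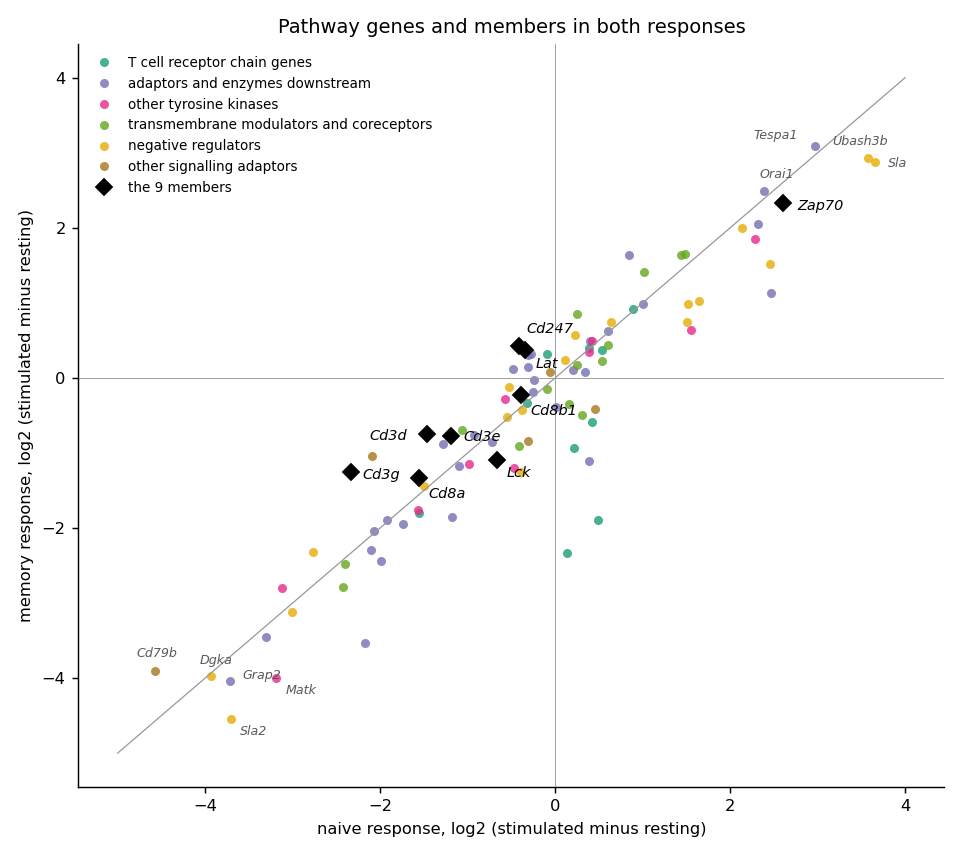
Log2 change on stimulation of 89 pathway genes (coloured by list) and the 9 members (black diamonds) in naive cells (x axis) and memory cells (y axis); the diagonal marks equal change. Zap70 lies with the genes that rose in both, at 2.33 in memory and 2.60 in naive cells. Cd3g, at -1.25 in memory and -2.33 in naive cells, and Cd3d, at -0.75 and -1.46, lie above the diagonal.

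Between memory and naive cells at rest, 22 of the 89 genes were higher and 7 lower in memory cells, and after stimulation 17 were higher and 12 lower. Of all tested genes, 13.9% were higher and 7.66% lower at rest, and 10.1% were higher and 14.1% lower after stimulation. The gamma chain genes of the receptor stood out. Tcrg was higher in memory cells by 3.09 ± 0.21 at rest and by 2.86 ± 0.21 after stimulation. Tcrg-C was at least 3.37-fold higher in memory resting cells (adjusted p = 9.86e-06), its probe being well above background on 4 of 4 memory resting arrays and on 0 of 4 in each naive group. It was also at least 3.03-fold lower in memory stimulated than in memory resting cells.

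Of 7 gamma delta T cell markers listed, 2 could be tested. Cd163l1 was higher in memory cells by 5.72 at rest and by 5.07 after stimulation. Maf was higher by 0.79 at rest and lower by 0.88 after stimulation. The summed linear level of both, in units of the 75th percentile, was 17.45 to 23.4 in memory resting cells, against 1.53 to 2.91 in naive resting cells. After stimulation it was 2.40 to 3.06 in memory cells, against 2.47 to 3.35 in naive cells, with overlap. Maf is also made by other T cells, and the part of these markers in the result was not tested.

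Lower in memory cells at rest were Rasgrp1, an activator of Ras, by 1.18 ± 0.13, Trat1, a transmembrane adaptor of the receptor, by 0.82 ± 0.18, Grap2 by 0.54 ± 0.17 and Sos1, another Ras activator, by 0.51 ± 0.16. With the replicate number as a block, 13 pathway genes were lower at rest in place of 7, while 4 were so after quantile normalization, without a probe filter or with the 2 groups alone, and 3 with the mean of a gene's probes. After stimulation Pik3cd, a lipid kinase of lymphocytes, was lower in memory cells by 1.26 ± 0.15, Matk by 1.03 ± 0.22, Vav2 by 1.01 ± 0.15 and the phosphatase Dusp22 by 0.97 ± 0.21. The difference between responses passed for 14 of the 89 genes, 3 higher and 11 lower in memory, where 5.90% of all genes were higher and 14.1% lower. It was 1.05 ± 0.30 for Tyrobp (adjusted p = 0.0239), lost with the normexp correction, and 0.59 ± 0.19 for Rasgrp1 (adjusted p = 0.0373), lost after quantile normalization. The receptor chain genes Tcrg-C and Trgv2 were called lower, but their stimulated arrays and their naive arrays were all below background, so only the bounds of their memory responses, at least 3.03-fold and 1.22-fold lower, are sizes.

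Lck and Zap70 have relatives that were read on the same arrays. Fyn, the other Src-family kinase of T cells, rose by 1.86 in memory cells (adjusted p = 7.30e-08) and by 2.29 in naive cells (adjusted p = 6.90e-09), opposite to Lck. Yes1 was higher in memory than naive cells by 2.85 ± 0.20 at rest and 1.95 after stimulation, and Lyn by 2.39 ± 0.18 and 2.19 ± 0.18. Syk, the relative of Zap70, was higher by 1.66 at rest (adjusted p = 0.0140) and 1.51 after stimulation (adjusted p = 0.0213). In naive stimulated cells the probe of Lyn was above background on 1 of 4 arrays and that of Syk on 2 of 4, and the call for Syk after stimulation was lost with the normexp correction.

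Of the transmembrane adaptors that serve other receptors, Fcer1g and Tyrobp carry the same activation motif as the CD3 chains, and Hcst signals through another motif. Fcer1g was higher in memory cells by 1.47 at rest and 0.94 after stimulation. Tyrobp was higher by 1.32 at rest and 2.37 ± 0.22 after stimulation, and Hcst by 0.57 and 0.70. The B cell receptor adaptors Cd79a and Cd79b did not pass in either comparison.

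Cd79b fell by 3.91 in memory and 4.58 ± 0.27 in naive cells, to a mean of -3.68 in memory stimulated cells, against 0.24 in memory resting cells, and to -3.98 in naive stimulated cells, against 0.59 in naive resting cells. The summed level of 5 B cell markers of 7 listed, Cd79a and Cd79b among them, was 0.190 to 0.261 in memory stimulated cells, against 1.34 to 1.60 in memory resting cells. In naive cells it was 0.217 to 0.406 after stimulation, against 1.63 to 2.21 at rest. What part they had in the fall of Cd79b was not tested.

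NK or NKT markers except Ncr1 at rest were higher in memory cells too, and monocyte, macrophage or neutrophil markers in part. The summed level of 7 of 8 NK or NKT markers, Fcer1g and Tyrobp among them, was 20.0 to 22.6 in memory resting cells, against 6.44 to 10.99 in naive resting cells. It was 45.9 to 70.7 in memory stimulated cells, against 13.95 to 22.2 in naive stimulated cells, with 6 of 7 above background on all arrays of each of these groups but naive resting, where 5 were. This sum follows mainly Nkg7, the brightest of them, with a mean log2 level of 5.61 in memory stimulated and 2.47 in naive resting cells. The probe of Ncr1 was above background on 1 of 4 memory resting and 3 of 4 memory stimulated arrays. It was so on 0 of 4 in each naive group. In memory cells Nkg7 rose by 1.88 on stimulation, while Klrb1c, Tyrobp and Fcer1g fell by 3.30, 1.04 and 0.84. Ncr1, Klra8 and Eomes did not pass there. For 10 of 11 monocyte, macrophage or neutrophil markers the summed level was 14.3 to 22.9 in memory resting cells, against 8.65 to 14.7 in naive resting cells, with overlap. After stimulation it was 2.90 to 4.69 in memory cells, against 1.60 to 3.18 in naive cells, again with overlap. At rest Lyz2, Lyz1, Cd14 and Fcgr3 of these were higher in memory cells, and S100a8, S100a9, Ngp, Camp, Csf1r and Itgam did not pass. Of 6 dendritic cell markers tested, Itgax, H2-Ab1, H2-Aa and Batf3 were higher in memory cells at rest, and Flt3 and Cd74 did not pass. Of 4 CD4 or regulatory T cell markers tested, Zbtb7b, Ctla4 and Ikzf2 were higher in memory cells at rest, and Cd4 did not pass. Which cells of these bulk samples made the mRNAs of these markers was not tested. The part of all these markers in the differences of Fcer1g, Tyrobp, Lyn, Syk and Yes1 was not tested either.

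**Figure D5:**
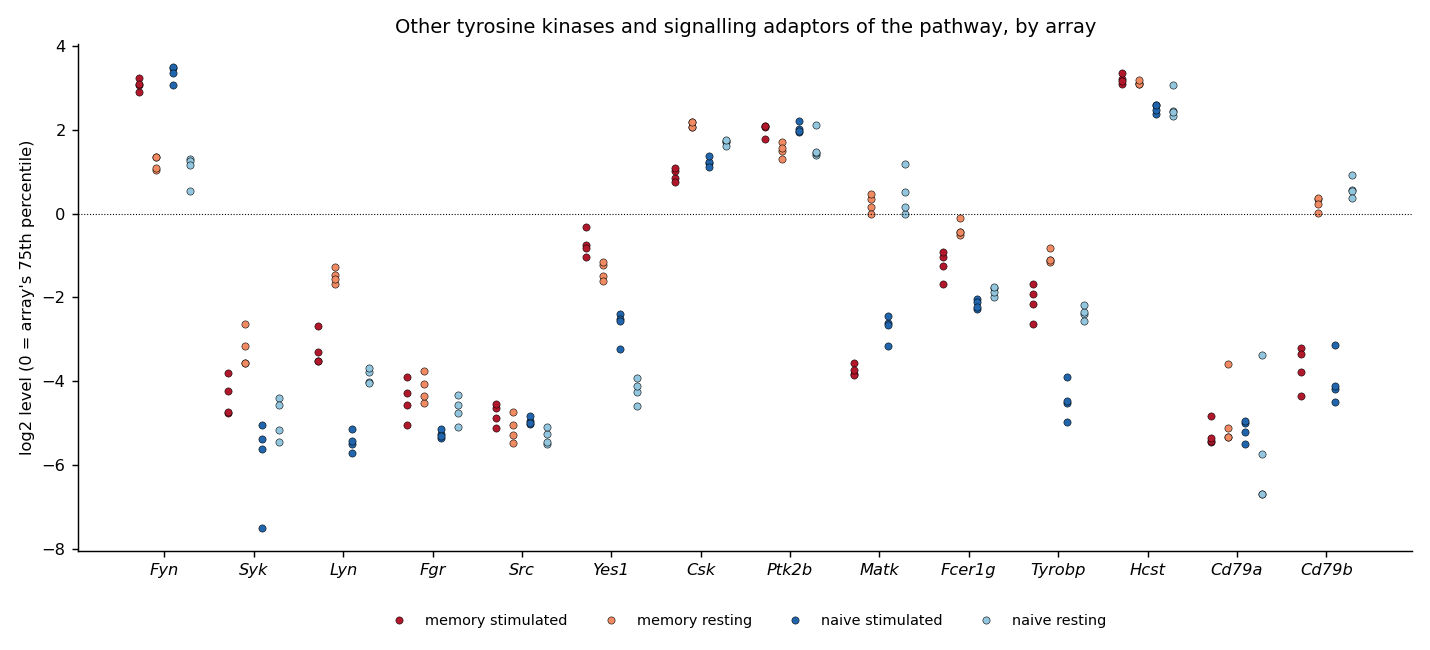
Level on each array (y axis, log2 signal minus the 75th percentile of the array) of 9 further tyrosine kinases and 5 signalling adaptors (x axis), coloured by group, with the dotted line at the 75th percentile. Yes1, Lyn, Fcer1g and Tyrobp are higher in memory than in naive cells at rest, by 2.85, 2.39, 1.47 and 1.32, and Fyn is higher in stimulated cells of both types.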

How the data were processed

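Each RNA sample was amplified from an oligo-dT primer, labelled with Cy3 and hybridised alone, per the labels' protocols, so signal reflects sequence near the 3′ end. Per the file headers, the authors extracted the scans with Agilent Feature Extraction 9.5.3.1. The deposited processed signal is a background-subtracted linear intensity per spot, not normalized between arrays. The same files flag each spot's saturation, outlier status and standing above background. The authors' deposited value table of intensities, whose making the sources used here do not describe, served as an alternative.

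Outlier and control spots were left out, spots of a probe averaged, log2 taken and each array's 75th percentile subtracted. Probes above background on 3 or more of the 4 arrays in any group entered the test, 27348 in all. Symbols came from RefSeq's gene table for 32719 probes and from the files for 8455. A gene was represented by its brightest tested probe, and other member probes were tested over all probes. One limma 3.58.1 model (lmFit, eBayes, under R 4.3.3) with 4 group means gave all contrasts, two-sided, with Benjamini-Hochberg adjustment over 18402 genes and a threshold of 0.05. It was tested on simulated data. An at-least fold compares the bright group with a ceiling for the dim one, taken array by array as the dim probe's own signal or, if higher, the faintest signal of any probe above background. Figures and motif searches used matplotlib 3.10.9, pandas 2.3.3 and numpy 2.4.6 under Python 3.11.15. The number of arrays limits the precision.

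The members and lists were chosen with earlier results of these data known. Named besides the members are, over the lists together, the 4 called genes with the largest rise and fall in each simple comparison and the 2 in the difference between responses, all other tyrosine kinases and adaptors listed, Cd44, and the 2 genes most like each member; Lcp2 was named after its values were seen, and 1 gene that the rule names is not reported here. The main fit did not pair arrays. A block by replicate number, which was also the slide position, is given beside its results in the resting comparison. There same-numbered deviations from the group means correlated at 0.303 to 0.585 across genes. The lowest such correlation was 0.044 in the naive response, -0.086 in the memory response and 0.054 in the stimulated comparison. Alternatives were quantile normalization, normexp, the authors' table, other probe filters, the mean of a gene's probes, a fit of the 2 groups alone, a replicate block and leaving out each array.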

Additional observations from a re-analysis of the deposited data

Results flagged for a closer look

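Of 64 groups of 4 arrays checked, 8 held an array that stood apart from the other 3, where chance gives about 1 in 20. Replicate 1 was that array for Cd3e in memory stimulated cells (0.24), Cd8a in naive resting cells (5.62), Lck in naive stimulated cells (5.09), Zap70 in naive resting cells (4.08) and Lat in memory resting cells (3.69). The others were Lat in naive stimulated replicate 4 (4.41), the second Cd3e probe in memory resting replicate 4 (-1.31) and the Cd8b1 probe placed on chromosome 5 in memory resting replicate 2 (-0.90).

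The memory response differed from the naive response, by limma's test of that difference, for 14 of 41 genes checked, where 20.0% of all genes passed. Some of the 41 were named because this difference was among the largest in their lists, so the count is not set against that share. It was higher for Cd3d (0.71), Cd3g (1.08), Cd247 (0.85), Lat (0.72), Rasgrp1 (0.59) and Tyrobp (1.05). It was lower for Sla (-0.78), Sh2d2a (-1.34), Yes1 (-0.90), Pik3cd (-1.36), Vav2 (-1.49) and Csk (-0.73). For Tcrg-C (-2.46) and Trgv2 (-2.39) the fitted values are no sizes, since their probes were above background in memory resting cells alone.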

How the results depend on the processing

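Cd3d, Cd3e, Cd3g, Cd8a, Lck and Zap70 kept the direction and call of both responses under all 24 alternatives. Normexp background correction was planned on all spots, but 3 arrays held 4, 15 and 13 spots whose local background exceeded the spot by over 100 units. The fit was thrown off there, and after its results had been seen it was replaced by a version, chosen after seeing the data, that gives such spots the array's median background. As planned, it put Cd247 at -0.11 and Lat at -0.16 in the memory response, called 1 member higher and 6 lower in each response and none in the other 3 contrasts, with 31 genes higher and 182 lower in the difference between responses. The repaired version called 2 members lower at rest and 1512 genes lower in the difference between responses, against 1 and 2602. Quantile normalization and the authors' table turned the memory responses of Cd247 (-0.21 and -0.18), Lat (-0.26 and -0.25) and Rasgrp1 (-0.041 and -0.10), and left 1 member higher in place of 3. Both called 1 member lower in the difference between responses in place of 0. Quantile normalization called 4 pathway genes lower at rest, against 7. The authors' table called 2 members and 2197 genes lower at rest, against 1409 genes, and 1677 genes higher in the difference between responses, against 1086. The mean of a gene's probes turned Cd247 in memory cells (-0.11), left 3 pathway genes lower at rest and 1 higher in the difference between responses, against 3. Pathway genes lower at rest numbered 4 without a filter and with only the compared groups. Requiring signal on all 16 arrays left 1651 of 14307 tested genes lower in the difference between responses, against 2602 of 18402. With the replicate block, 3 members, 13 pathway genes and 2427 genes were lower at rest, 2 members were lower after stimulation against 1, Zap70 being added (adjusted p = 0.0332), Cd8a passed as higher (adjusted p = 0.0453), and in the difference between responses 1 member, Lck, was lower, with 8 pathway genes and 1768 genes higher. Ratio tests passing numbered 14 under quantile normalization and repaired normexp and 17 in the authors' table, against 0. The cause was not tested, save that more ratio tests at the smallest p lower its adjusted value. Slide as a block could not be fitted, since each slide held 1 group.

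Leaving out each array gave these ranges. In the naive response 1 to 1 members were higher and 6 to 8 lower, with 24 to 32 and 33 to 36 pathway genes and 6447 to 7223 and 5398 to 5709 of all genes. In the memory response they were 2 to 3 and 5 to 5, 26 to 32 and 37 to 43, and 5418 to 5901 and 6768 to 7360. At rest they were 0 to 0 and 1 to 2, 19 to 28 and 3 to 7, and 1900 to 3289 and 880 to 1963. After stimulation they were 1 to 3 and 1 to 2, 14 to 18 and 7 to 15, and 1390 to 2177 and 1814 to 2892. For the difference between responses they were 3 to 4 and 0 to 1, 1 to 4 and 8 to 14, and 733 to 1342 and 2128 to 3048. Ratio tests passing numbered 0 to 14. Dim pathway probes are limited by background.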
